A study of Arabidopsis thaliana with 16 samples.

Results

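Leaf transcripts of 2 Arabidopsis thaliana lines labelled as HYPK knockouts were set against those of a line in which an artificial microRNA is directed against NAA10. The arrays were chosen by sample title: 8 HYPK arrays and 4 NAA10 knockdown arrays, 12 of the 16 in the series, with all 27826 probe sets. The exon 1 line carries a T-DNA, a piece of DNA transferred by Agrobacterium, in the first exon of HYPK, and the exon 2 line carries one in the second exon. Each insertion line was measured on 4 arrays, and the HYPK value is the mean of the 2 line means. The knockdown line is called amiNAA10. Wild-type plants (WT) gave the other 4 arrays of the series; they were not part of the comparison, and their levels are given beside it only for orientation. All plants were untreated and 6 weeks old, raised on soil in short days of 8.5 h light, with 22 °C in the light and 18 °C in the dark. The sources used here give neither the promoter that drives the artificial microRNA, nor the number of transformed lines behind it, nor the accession background. Nor do the labels state that the 4 arrays of each line came from separate plants, so p-values cover only the spread between arrays, part or all of which may be technical.

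NAA10 and NAA15 form NatA, the enzyme complex that transfers an acetyl group to the first residue of many nascent proteins at the ribosome. NAA10 is the catalytic subunit, and NAA15 anchors the complex to the ribosome. HYPK is a small protein that binds NatA, and NAA50, the catalytic subunit of a further acetyltransferase, also binds NAA15. Plants with little NatA activity are known to grow slowly and to tolerate drought. By their labels the lines are altered in different proteins of this complex, and the comparison shows where their leaf transcripts differ.

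All levels below are log2 expression values from robust multi-array averaging (RMA), and all differences are HYPK lines minus amiNAA10 on the log2 scale, so that 1 unit is a 2-fold difference. A probe set is called when its limma p-value, adjusted over all 27826 probe sets, is under 0.05. Pairs of arrays within a genotype had r of 0.974 to 0.990 across probe sets. Over the 12 arrays the first principal component held 31.5% of the variance: the exon 1 arrays lay between -5.51 and 28.1 and the exon 2 arrays between -13.9 and 38.3, against -52.5 to -18.4 for the amiNAA10 arrays. Replicate 4 of the exon 2 line stood apart at -13.9, since the other exon 2 arrays lay between 22.9 and 38.3. Replicate 2 of amiNAA10 lay farthest out at -52.5. The leaf label was checked with marker genes: the mean of 47 nuclear photosynthesis genes lay between 9.15 and 9.49 on the HYPK arrays and between 8.76 and 9.11 on the amiNAA10 arrays, while the mean of 10 flower genes lay between 1.71 and 2.01 on the HYPK arrays and between 1.83 and 1.88 on the amiNAA10 arrays.

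NAA10 transcript was higher in the HYPK lines than in its own knockdown line. The level (AT5G13780) was 4.67, 4.88, 4.80 and 4.99 in the exon 1 line and 5.06, 5.0, 5.05 and 4.72 in the exon 2 line, against 2.96, 2.97, 2.64 and 2.97 in amiNAA10. All 8 HYPK arrays lay above all 4 amiNAA10 arrays, and WT lay at 4.96 ± 0.10 (SD, n = 4). The difference was 2.01 (SE 0.10, adjusted p = 1.22e-08), a 4.02-fold higher level in the HYPK lines. The two-sided exact permutation p was 0.00202, the smallest that 8 arrays against 4 can give.

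HYPK itself (AT3G06610) read lower on every exon 1 array than on any exon 2 array. The exact permutation p between the insertion lines was 0.0286, the smallest that 4 arrays against 4 can give. By limma this line difference was not called. Its probe set read 4.53, 4.87, 4.69 and 4.79 in the exon 1 line and 5.52, 5.66, 5.38 and 5.04 in the exon 2 line, against 5.21, 5.38, 5.30 and 5.48 in amiNAA10. The exon 1 arrays lay below every amiNAA10 array, whereas the exon 2 arrays spanned the amiNAA10 range. Against amiNAA10 the exon 1 line differed by -0.62 (adjusted p = 0.00975) and the exon 2 line by 0.06 (adjusted p = 0.863), and the mean of both lines by -0.28 (SE 0.11, adjusted p = 0.116, exact permutation p = 0.216). WT lay at 5.66 ± 0.08 (SD, n = 4). Where the probes lie relative to either insertion is not known from the sources used here, so a remaining signal does not check the knockout label of the exon 2 line, and directions drawn from that line rest on its label.

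NAA15 (AT1G80410) was slightly lower in the HYPK lines than in amiNAA10. It read 8.02, 8.14, 8.12 and 8.05 in the exon 1 line and 8.2, 8.06, 8.17 and 8.12 in the exon 2 line, against 8.48, 8.48, 8.51 and 8.15 in amiNAA10. WT read 8.04, 7.97, 8.05 and 7.85, nearer to the HYPK arrays than to amiNAA10 replicates 1, 2 and 3. Replicate 4 of amiNAA10 fell within the HYPK range, and the difference was -0.29 (SE 0.09, adjusted p = 0.0391, exact permutation p = 0.00606). That call ended without amiNAA10 replicate 3 (-0.26, adjusted p = 0.139), with either insertion line alone, and when 1 of 7 other arrays was left out. NAA50 (AT5G11340) differed by -0.04 (SE 0.11, adjusted p = 0.882), with 4.92 ± 0.10 in the exon 1 line, 4.87 ± 0.09 in the exon 2 line and 4.94 ± 0.11 in amiNAA10 (SD, n = 4 each).

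**Figure D1:**
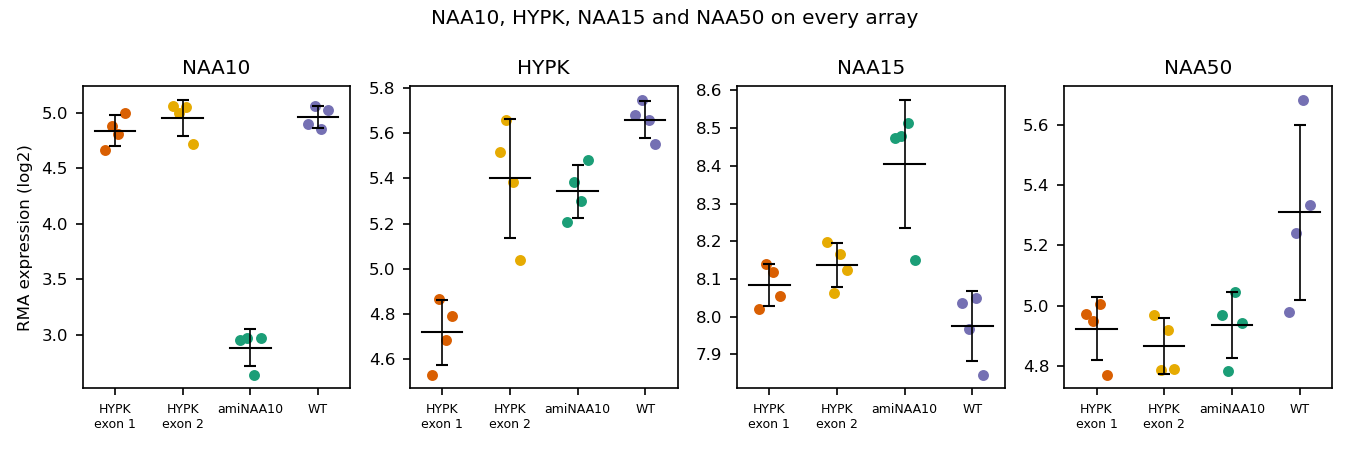
Log2 expression of NAA10, HYPK, NAA15 and NAA50 on each array of the exon 1 line, the exon 2 line, amiNAA10 and WT; points are arrays, horizontal bars the means and whiskers the SD (n = 4), and each panel has its own axis range. NAA10 is low in amiNAA10 only (2.64 to 2.97), and HYPK is lowest in the exon 1 line (4.53 to 4.87).

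The loci beside the targeted genes were read as well. AT3G06600, which lies next to HYPK, was 3.68, 3.86, 4.09 and 3.25 in the exon 2 line, against 1.55 to 1.95 in the exon 1 line and 1.56 to 1.86 in amiNAA10. The exon 1 and amiNAA10 ranges overlapped and the exon 2 arrays stood above both, and the line difference (exon 1 minus exon 2) was -1.98 (adjusted p = 1.23e-05). The mean of both lines was therefore called at 0.97 (adjusted p = 0.000447) although the exon 1 line alone gave -0.02 (adjusted p = 0.965). AT3G06620, on the other side of HYPK, differed by 0.09 (adjusted p = 0.790). AT5G13770, next to NAA10, was 6.24, 5.83, 5.81 and 5.99 in the exon 1 line and 6.13, 5.83, 6.06 and 5.82 in the exon 2 line, against 5.36, 4.96, 5.27 and 5.42 in amiNAA10. The groups did not overlap, and AT5G13770 was higher by 0.71 (SE 0.11, adjusted p = 0.000973, exact permutation p = 0.00202). AGL15, the MADS-box gene on the other side of NAA10, read 1.22 to 1.72 in the HYPK lines and 1.31 to 1.84 in amiNAA10 (difference -0.05, adjusted p = 0.851).

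Across the array, 2850 of 27826 probe sets (10.2%) were called, 1487 higher in the HYPK lines (5.34%) and 1363 lower (4.90%). Most differences were modest: the median size among called probe sets was 0.57, and 133 were at least 2-fold higher (0.478%) and 171 at least 2-fold lower (0.615%). All 8 HYPK arrays lay above all 4 amiNAA10 arrays for 973 probe sets (3.5%) and below them for 878 (3.16%), 6.65% together. Each insertion line alone gave fewer calls, 1505 for exon 1 (5.41%; 2.62% higher and 2.79% lower) and 1824 for exon 2 (6.56%; 3.62% higher and 2.94% lower), and these comparisons share the amiNAA10 arrays. The count for both lines was 1387 without amiNAA10 replicate 2 and 1496 without amiNAA10 replicate 3. Between the insertion lines themselves 2 probe sets were called (0.00719%), AT3G06600 and AT4G10695, the second of which was named after its value was seen (exon 1 minus exon 2, -2.27).

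PDF1, GER3 and LTL1 fell farthest among symbol-bearing genes whose groups did not overlap. PDF1, a proline-rich protein of the outermost cell layer of shoot tips and young organs, was 1.70, 1.59, 1.79 and 1.75 in the exon 1 line and 1.84, 1.92, 1.51 and 1.90 in the exon 2 line, against 5.19, 6.32, 6.55 and 3.54 in amiNAA10. The HYPK arrays sat in a narrow band near the bottom of the scale, while the amiNAA10 arrays were all higher and widely spread, with replicate 4 lowest. The difference was -3.65 (SE 0.37, adjusted p = 4.52e-05), and WT averaged 2.01 ± 0.10 (SD, n = 4). A mean under 1.83, the level that bounds the dimmest 30% of probe sets, entered the called differences of PDF1, SPCH, PEL3, TRM13, LDOX, PYK10, CYC1BAT, ANT, GRF4, GRF5 and AT3G06600, whose size may be understated. For CYP71A12 and AGL15 the means of all 3 lines lay under it.

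LTL1, a GDSL-type lipase, read 2.22, 2.0, 3.21 and 3.44 in the exon 1 line and 3.86, 4.60, 2.42 and 3.90 in the exon 2 line, against 6.21, 6.09, 6.62 and 5.64 in amiNAA10. Here every amiNAA10 array exceeded every HYPK array by over 1 unit, and the difference was -2.93 (SE 0.42, adjusted p = 0.000557). GER3, a germin-like protein of the cell wall, differed by -3.01 (SE 0.43, adjusted p = 0.000573), with -3.70 for the exon 1 line and -2.33 for the exon 2 line. The remaining largest falls were SPCH (-2.36), PEL3 (-2.26), the plasmodesmal callose-binding protein gene E13L3 (-2.23), TRM13 of the TON1-recruiting family (-2.01), the transcription factor gene WRKY71 (-1.95), the cytochrome P450 gene CYP706A2 (-1.92), the nitrilase gene NIT2 (-1.91), AZI1, a lipid-transfer-like protein of systemic immunity (-1.83), the cell wall linker protein gene CWLP (-1.82), the branched-chain amino acid transaminase gene BCAT-2 (-1.76), the D-type cyclin gene CYCD3;1 (-1.74) and the cation/proton exchanger gene CHX17 (-1.66). All 15 had non-overlapping groups by the rule that chose them. TRM13 varied little within each line, at 1.69 to 2.07 in the exon 1 line, 1.65 to 1.98 in the exon 2 line and 3.45 to 4.18 in amiNAA10. Of these genes BCAT-2 lost its call without amiNAA10 replicate 2 (-1.50, adjusted p = 0.0646).

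The largest rise was MIR841a, a microRNA gene on chromosome 4 described with its neighbours below. CIPK20, a protein kinase that partners calcineurin B-like calcium sensors, was 7.32, 5.97, 6.26 and 6.76 in the exon 1 line and 6.92, 6.67, 7.01 and 5.77 in the exon 2 line, against 5.03, 3.01, 4.54 and 5.01 in amiNAA10. No array of either HYPK line came down to the amiNAA10 range, whose lowest array was replicate 2, and the difference was 2.19 (SE 0.34, adjusted p = 0.000965). The other large rises were the late embryogenesis abundant gene LEA3 (1.92), the expansin gene EXPA8 (1.83), the response regulator gene ARR6 (1.80), the microRNA gene MIR169m (1.67), the histone H2A gene HTA4 (1.63), CYP706A6 (1.62), the glutathione transferase gene ERD9 (1.51), the beta-amylase gene BMY3 (1.51), BT1, a BTB and TAZ domain protein (1.47), the adenine phosphoribosyltransferase gene APT3 (1.47), the cis-prenyltransferase gene cPT4 (1.46), the jasmonate methyltransferase gene JMT (1.42) and DOT3, which acts in leaf vein patterning (1.42). Of the 30 genes, 4 were not called in the exon 1 line alone: BT1 (0.97, adjusted p = 0.0953), NIT2 (-1.25, adjusted p = 0.196), BCAT-2 (-1.47, adjusted p = 0.0816) and CHX17 (-1.41, adjusted p = 0.0522). All 30 were called in the exon 2 line alone.

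**Figure D2:**
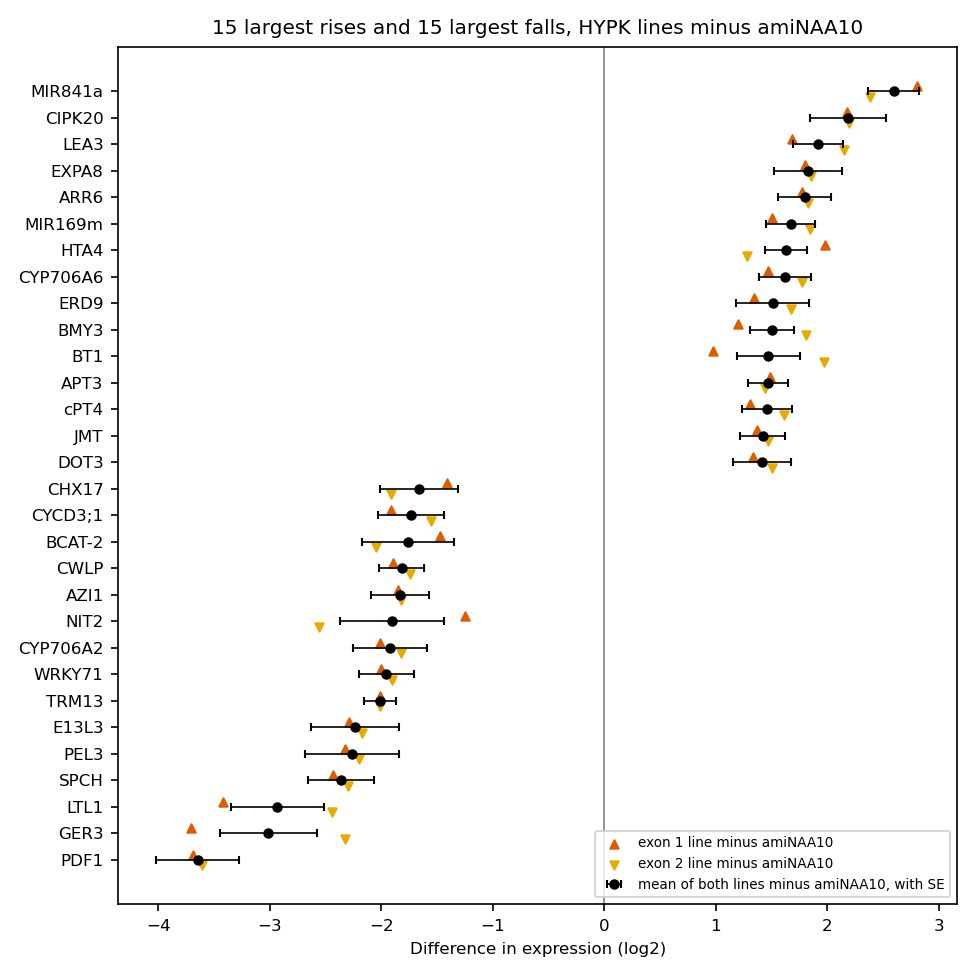
Log2 difference, HYPK lines minus amiNAA10, of the 15 largest rises and 15 largest falls among genes with a symbol and non-overlapping groups; black points with SE are the mean of both lines, triangles the exon 1 and exon 2 lines alone. MIR841a is at 2.60 and PDF1 at -3.65, and both lines lie on the same side of 0 for all 30 genes.

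The stomatal lineage and the cuticle were followed up with lists chosen after these values were seen. SPCH is the transcription factor that starts the stomatal lineage in young leaf epidermis. It read 1.90, 1.42, 1.94 and 1.55 in the exon 1 line and 1.93, 1.75, 1.94 and 1.72 in the exon 2 line, against 3.6, 5.04, 4.92 and 2.97 in amiNAA10. Every amiNAA10 array was higher, replicates 2 and 3 most, and the difference was -2.36 (SE 0.30, adjusted p = 0.000242). In the stomatal lineage list 4 of 19 genes were lower and 1 was higher, with a median of -0.26, against 4.90% lower and 5.34% higher over all probe sets and a median over all probe sets of 0.01. The other 3 lower genes were bHLH071 (-1.43), the receptor kinase gene ERL2 (-1.56) and TMM, the receptor-like protein that keeps stomata spaced (-0.73). The higher one was MYB88, which limits divisions late in the lineage (0.46). MUTE, which acts after SPCH, and the signalling peptide gene EPF2 read -0.26 (adjusted p = 0.196) and -0.23 (adjusted p = 0.334). Without amiNAA10 replicate 4 the list had 8 lower genes, and without replicate 1, 2 or 3 it had no higher one, so the MYB88 call ended. TMM lost its call without amiNAA10 replicate 2 (-0.57, adjusted p = 0.132) or replicate 3 (-0.72, adjusted p = 0.0829). The 8 markers of mature guard cells and myrosin cells held no call by limma, with 2 at an unadjusted p under 0.05, and their mean was 5.95 to 6.28 on the HYPK arrays, 5.94 to 6.17 on the amiNAA10 arrays and 6.53 to 6.87 on the WT arrays.

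Cutin is the polyester of the plant cuticle. Of 16 genes of cutin synthesis and cuticle assembly, 4 were lower and 1 was higher, with a median of -0.12. The shares over all probe sets were 4.90% lower and 5.34% higher, and the 1 higher call is near that share. PEL3, an acyltransferase needed for cutin, was 1.67, 1.53, 1.88 and 1.70 in the exon 1 line and 2.06, 1.73, 1.93 and 1.57 in the exon 2 line, against 3.31, 5.24, 5.41 and 2.13 in amiNAA10. Replicates 2 and 3 of amiNAA10 were far above the HYPK arrays and replicate 4 only narrowly, and the difference was -2.26 (SE 0.42, adjusted p = 0.00336). HTH, an oxidoreductase that keeps organs from fusing (-1.48), the glycerol-phosphate acyltransferase gene GPAT6 (-1.24) and LTL1 made up the other lower genes, and CYP86A2, a fatty acid hydroxylase, was the higher one (0.61). The shine transcription factor genes SHN1, SHN2 and SHN3 differed by 0.07, 0.05 and -0.05 (adjusted p from 0.800 to 0.923). The count of lower genes was 4 without any 1 HYPK array and without amiNAA10 replicate 1, 2 or 3, and 6 without amiNAA10 replicate 4. The higher call of CYP86A2 ended without amiNAA10 replicate 2 or replicate 3.

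The other epidermis markers differed far less than PDF1. Of 7 epidermis markers PDF1 alone was called, against 4.90% lower over all probe sets (the count was 2 without amiNAA10 replicate 1). ATML1 and PDF2, the homeodomain factors that set epidermal fate, read 0.05 (adjusted p = 0.867) and -0.24 (adjusted p = 0.299). The mean of the list lay between 5.12 and 5.53 on the HYPK arrays, between 5.65 and 6.43 on the amiNAA10 arrays and between 5.61 and 5.71 on the WT arrays. That mean includes PDF1 and is pulled by it, and the median difference of the list was -0.24. In whole leaves fewer cells of a type and less RNA per cell cannot be told apart.

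Some genes of cell division and leaf growth were lower in the HYPK lines. Of 11 cell division markers 4 were lower and none was higher, with a median of -0.52, against 4.90% lower over all probe sets. The exon 1 line alone had 2 lower calls in this list and the exon 2 line alone 1. The list mean lay between 2.29 and 2.57 on the HYPK arrays, between 2.44 and 3.38 on the amiNAA10 arrays and between 2.57 and 2.98 on the WT arrays. CYCD3;1, a cytokinin-responsive cyclin that drives entry into the cell cycle, was 3.62, 2.95, 3.87 and 3.69 in the exon 1 line and 4.14, 4.14, 3.97 and 3.31 in the exon 2 line, against 5.29, 5.98, 6.29 and 4.24 in amiNAA10. The amiNAA10 arrays lay above all HYPK arrays, replicate 4 barely so, and the difference was -1.74 (SE 0.30, adjusted p = 0.00182). CYC1BAT, a B-type cyclin (-0.62), SYP111, the syntaxin that builds the cell plate (-0.73), and the mitotic kinase gene CDKB2;1 (-0.59) were the other lower ones. Their groups overlapped, and the list held 1 call without amiNAA10 replicate 2 or without replicate 3, and 2 without exon 1 replicate 1. AUR1, PCNA1, MCM2 and MCM5 were not called (-0.59, -0.52, -0.11 and -0.26).

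The 28 A-, B- and D-type cyclins were grouped by symbol after values were seen. Of these, 5 were lower and 1 was higher, with a median of -0.25. Over all probe sets 4.90% were lower and 5.34% higher, so the 1 higher call is not above that share. Besides CYCD3;1 the lower ones were CYCA2;3 (-1.19, adjusted p = 0.00182), CYCA2;4 (-1.3, adjusted p = 0.00242), CYCD6;1 (-1.27, adjusted p = 0.00714) and CYCA1;1 (-0.57), and the higher one was CYCB1;5 (0.60). CYCA2;4 read 2.34 to 2.97 in the exon 1 line, 2.74 to 3.11 in the exon 2 line and 3.19 to 4.71 in amiNAA10, with no overlap. Without amiNAA10 replicate 2 the lower count was 4, and CYCB1;5 was no longer called in 9 of the 12 fits that left out 1 array.

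The growth-regulating factors (GRFs) are transcription factors of young, dividing leaf tissue, and GIF proteins are their partners. A list of 13 genes, the GRFs, their partners and ANT, was also chosen after values were seen. In it 7 were lower and none was higher, with a median of -0.47, against 4.90% lower over all probe sets. The exon 1 line alone had 5 lower calls in the list and the exon 2 line alone 1. GRF3 read 2.01, 1.94, 2.17 and 1.99 in the exon 1 line and 2.21, 2.43, 2.78 and 2.45 in the exon 2 line, against 3.87, 3.43, 3.54 and 3.28 in amiNAA10. The groups were well apart, and GRF3 was lower by 1.29 on the log2 scale (difference -1.29, SE 0.12, adjusted p = 2.99e-05). ANT, which prolongs organ growth (-1.02), GRF2 (-0.96), GRF5 (-0.76), GRF4 (-0.74), GRF1 (-0.48) and GIF2 (-0.28) completed the lower set. GRF2 lost its call without amiNAA10 replicate 2 (-0.88, adjusted p = 0.0522), and the count was 4 without that array and 3 without amiNAA10 replicate 3. In WT, GRF3 averaged 2.2 ± 0.18 and CYCD3;1 4.56 ± 0.29 (SD, n = 4).

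Of 3 root markers 1 was called, and it was lower in the HYPK lines, against 4.90% lower over all probe sets. PYK10, a beta-glucosidase abundant in roots and seedlings, was 1.47, 2.74, 1.78 and 1.92 in the exon 1 line and 1.63, 1.90, 1.54 and 1.27 in the exon 2 line, against 2.17, 5.03, 4.31 and 3.46 in amiNAA10. Replicate 1 of amiNAA10 lay within the HYPK range and replicates 2 and 3 were highest, as for SPCH and PEL3, and the difference was -1.96 (SE 0.36, adjusted p = 0.00321). The other 2 root markers stayed near the bottom of the scale, SHV2 at 1.38 in the HYPK lines and 1.44 in amiNAA10, and EXPA7 at 1.81 in the HYPK lines and 1.87 in amiNAA10. Over the root list the mean was 1.4 to 1.92 on the HYPK arrays, 1.71 to 2.78 on the amiNAA10 arrays and 1.63 to 1.81 on the WT arrays. No flower marker was called by limma (0 of 10, and 0 at an unadjusted p under 0.05). The part of other tissues or of leaf age in the growth and epidermis genes was not tested.

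Most type-A cytokinin response regulators were higher in the HYPK lines. Type-A response regulators are induced by cytokinin and restrain its signalling. Of 10 measured members 8 were higher and none was lower, with a median of 0.94, against 5.34% higher over all probe sets. ARR6 was 5.81, 4.53, 5.09 and 5.32 in the exon 1 line and 5.72, 5.34, 5.39 and 4.51 in the exon 2 line, against 3.16, 3.08, 3.36 and 4.05 in amiNAA10. No HYPK array fell to the amiNAA10 range, and all of them lay under the WT arrays (7.04 to 7.40). The difference was 1.80 (SE 0.24, adjusted p = 0.000375), or 3.48-fold. ARR15 (1.71), RR16 (1.45), ARR9 (0.95), ARR7 (0.94), RR5 (0.94), ARR4 (0.84) and RR3 (0.78) were the other higher members, and RR17 and ARR3 read 0.28 (adjusted p = 0.148) and 0.07 (adjusted p = 0.742). The list mean was 4.47 to 5.44 on the HYPK arrays, 3.66 to 4.30 on the amiNAA10 arrays and 5.93 to 6.27 on the WT arrays. The exon 1 line alone had 3 calls in the list and the exon 2 line alone 7, and without amiNAA10 replicate 2 the count for both lines was 4.

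**Figure D3:**
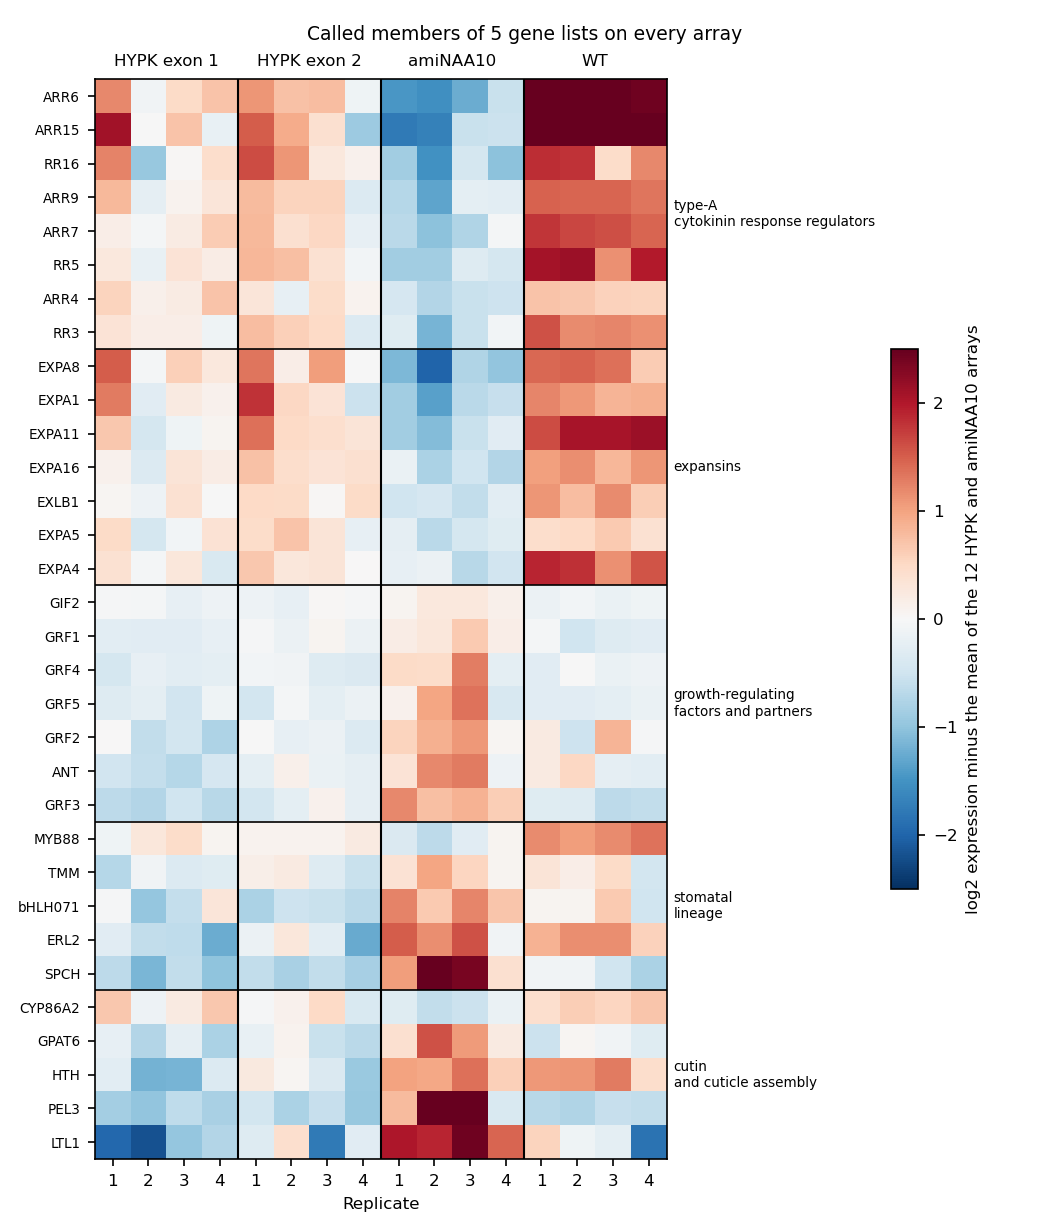
Log2 expression of the called members of 5 gene lists on every array, each gene minus its mean over the 12 HYPK and amiNAA10 arrays; columns are the 4 replicates of the exon 1 line, the exon 2 line, amiNAA10 and WT. Type-A response regulators and expansins are low in amiNAA10, while most called growth-regulating, stomatal and cuticle genes are high there (GRF3 at 3.28 to 3.87 and SPCH at 2.97 to 5.04 in amiNAA10); the WT columns are orientation only.

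Nuclear genes of photosynthesis held the most higher calls of any list, 28 of 47 with none lower and a median of 0.38, against 5.34% higher over all probe sets. The photosynthesis list mean was 9.20 to 9.49 in the exon 1 line and 9.15 to 9.49 in the exon 2 line, against 8.76 to 9.11 in amiNAA10 and 9.62 to 9.81 in WT, with no overlap between the HYPK lines and amiNAA10. RBCS2B, a small subunit of Rubisco, was 9.02, 8.26, 8.56 and 8.88 in the exon 1 line and 8.91, 9.15, 8.97 and 8.26 in the exon 2 line, against 7.63, 6.87, 7.44 and 7.60 in amiNAA10. Each HYPK array was above each amiNAA10 array, and the difference was 1.37 (SE 0.19, adjusted p = 0.000442). LHCB2.1 of the light-harvesting antenna (0.65), PSBP-1 of the oxygen-evolving complex (0.51) and PSAK of photosystem I (0.42) followed by adjusted p. Not called were RBCS1A (0.11), PETE1 (-0.18), PSAH-1 (0.04) and CAB3 (0.00). The members of the Rubisco and antenna families have close copies, and probes may read more than 1 of them. The count dropped to 8 without amiNAA10 replicate 2 and to 15 without amiNAA10 replicate 3.

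Expansins loosen the cell wall during growth. Of 33 expansin genes, grouped by symbol after values were seen, 7 were higher and none was lower, with a median of 0.15. The share higher over all probe sets was 5.34%. EXPA8 read 7.79, 6.24, 6.89 and 6.54 in the exon 1 line and 7.62, 6.44, 7.34 and 6.28 in the exon 2 line, against 5.15, 4.28, 5.53 and 5.30 in amiNAA10. All HYPK arrays were above that range, and the difference was 1.83 (SE 0.31, adjusted p = 0.00169). EXPA1 (1.3), EXPA11 (1.05), EXPA16 (0.83), EXLB1 (0.67), EXPA5 (0.61) and EXPA4 (0.57) were the others. The exon 1 line alone gave 2 calls and the exon 2 line alone 7, and without amiNAA10 replicate 2 both lines together gave 4.

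Some phloem genes were higher too. Of 10 vascular markers 4 were higher and none was lower, with a median of 0.39, against 5.34% higher over all probe sets. PP2-A1, a phloem lectin, was 7.23, 7.28, 7.11 and 7.24 in the exon 1 line and 7.20, 7.19, 7.14 and 7.04 in the exon 2 line, against 6.41, 6.40, 6.34 and 6.68 in amiNAA10. The HYPK arrays were tightly grouped above the amiNAA10 arrays, just under the WT mean of 7.29, and the difference was 0.72 (SE 0.08, adjusted p = 0.000137). APL, the transcription factor of phloem identity (0.62), the companion-cell sucrose carrier gene SUC2 (0.63) and the sulphate transporter gene SULTR2;1 (0.40) were the other higher members. SULTR2;1 lost its call in 7 of the 12 fits that left out 1 array, among them those without amiNAA10 replicate 2 (0.33, adjusted p = 0.165) and replicate 3 (0.37, adjusted p = 0.127). The xylem markers XCP1 and IRX3 read 0.26 and -0.31 and were not called. The vascular list mean lay between 5.68 and 5.94 on the HYPK arrays, between 5.34 and 5.54 on the amiNAA10 arrays and between 5.98 and 6.22 on the WT arrays, and its part in the cytokinin and photosynthesis differences was not tested.

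**Figure D4:**
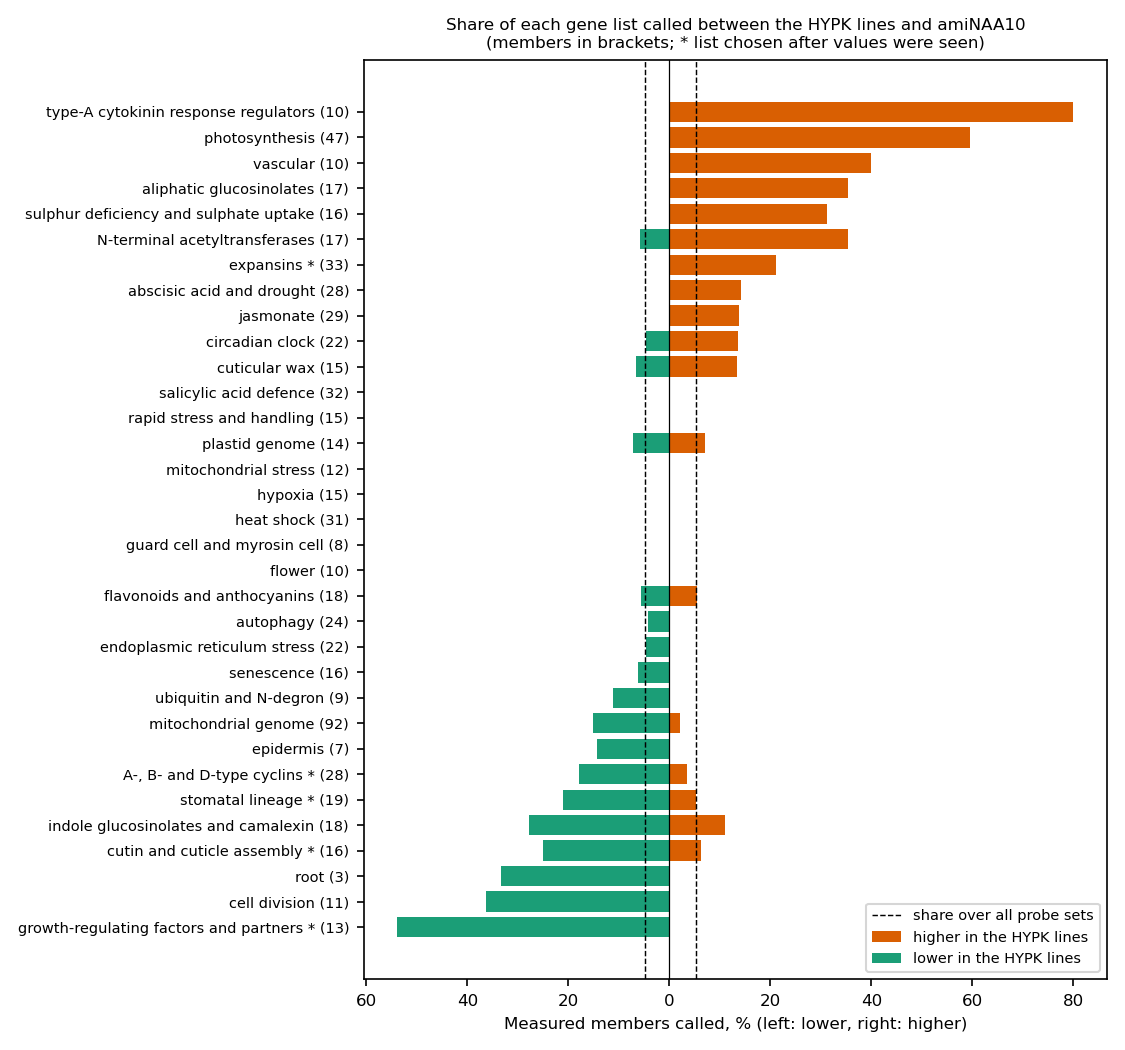
Share of the measured members of each gene list called between the HYPK lines and amiNAA10, in percent, lower calls to the left of 0 and higher calls to the right; dashed lines mark the shares over all probe sets (4.90% lower, 5.34% higher), and asterisks mark lists chosen after values were seen. Type-A response regulators (8 of 10) and photosynthesis (28 of 47) reach farthest right, growth-regulating factors (7 of 13) farthest left.

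Genes of glucosinolate and camalexin synthesis differed in both directions. Aliphatic glucosinolates are made from methionine. Of 17 genes of their synthesis 6 were higher and none was lower, with a median of 0.48, against 5.34% higher over all probe sets. SOT18, a sulphotransferase of the last core step, was 5.84, 6.18, 6.22 and 5.78 in the exon 1 line and 6.29, 6.32, 6.17 and 5.72 in the exon 2 line, against 5.36, 5.05, 5.0 and 5.25 in amiNAA10. The ranges were separate, and the difference was 0.90 (SE 0.13, adjusted p = 0.000598). MYB29, a regulator of the pathway (0.90), the side-chain oxygenase gene FMO GS-OX1 (1.17), the locus AT2G31790 (0.60), CYP83A1 (0.69) and the transporter gene BAT5 (0.78) were the other higher members, whereas the regulator gene MYB28 was not called (0.31). The count was 3 without amiNAA10 replicate 2 or replicate 3, and AT2G31790 was among those that lost their call (0.51, adjusted p = 0.103, without replicate 2).

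In the list of indole glucosinolates and camalexin, which derive from tryptophan, 2 of 18 genes were higher and 5 lower, with a median of -0.21. The shares over all probe sets were 5.34% higher and 4.90% lower. PEN2, a myrosinase that activates indole glucosinolates against fungi, read 7.95, 8.05, 8.2 and 7.86 in the exon 1 line and 8.04, 7.81, 8.07 and 8.25 in the exon 2 line, against 8.55, 8.97, 8.63 and 8.93 in amiNAA10. All HYPK arrays were below, and the difference was -0.74 (SE 0.11, adjusted p = 0.000766). NIT2, the methyltransferase gene IGMT2 (-1.16), the camalexin genes PAD3 (-1.68) and CYP71A12 (-0.45) were also lower. The higher ones were MYB34, a regulator of indole glucosinolate synthesis (1.52, adjusted p = 0.00595), and CYP79B3, an early enzyme of the pathway (0.79). MYB34 averaged 4.82 in the HYPK lines and 3.30 in amiNAA10, with overlapping arrays. The lower count was 2 without amiNAA10 replicate 2 and 3 without amiNAA10 replicate 3 or exon 1 replicate 1, the higher count was 1 in 7 of the 12 fits that left out 1 array, and without amiNAA10 replicate 2 IGMT2 was no longer called (-0.93, adjusted p = 0.111).

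Some sulphate assimilation genes were higher, 5 of 16 with none lower and a median of 0.48, against 5.34% higher over all probe sets. LSU2, of a small family induced by low sulphur, was 5.24, 5.32, 4.97 and 4.87 in the exon 1 line and 5.79, 5.44, 4.77 and 5.0 in the exon 2 line, against 4.05, 4.54, 3.63 and 4.19 in amiNAA10. The groups did not overlap, and the difference was 1.07 (SE 0.20, adjusted p = 0.00298). ATSDI1, a further low-sulphur marker (1.34), SHM7 (0.78), and the sulphate reduction genes APR2 (0.74) and APR1 (0.56) were the other higher ones. Without amiNAA10 replicate 1 or replicate 2 the count was 3. Without amiNAA10 replicate 3 it was 1, and ATSDI1 (1.01, adjusted p = 0.0828), SHM7 (0.65, adjusted p = 0.115) and APR2 (0.69, adjusted p = 0.0505) were not called there. The exon 1 line alone had 1 call in the list and the exon 2 line alone 7.

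Jasmonate genes were higher in part. Of 29 genes of jasmonate synthesis, conversion and response 4 were higher and none was lower, with a median of 0.47, against 5.34% higher over all probe sets. The count was 7 without exon 1 replicate 1, 2 in 6 of the other fits that left out 1 array, 1 without amiNAA10 replicate 2 or replicate 3, and 2 without WT in the fit. JMT, which methylates jasmonic acid, was 4.54, 5.21, 4.77 and 4.01 in the exon 1 line and 4.40, 4.82, 5.15 and 4.52 in the exon 2 line, against 3.40, 2.75, 3.22 and 3.66 in amiNAA10, and 6.39 to 6.76 in WT. The HYPK arrays stood between the amiNAA10 and WT arrays, and the difference was 1.42 (SE 0.20, adjusted p = 0.000539). AOC2, an allene oxide cyclase (1.23, adjusted p = 0.0457), JAR1, which conjugates jasmonate to isoleucine (0.83, adjusted p = 0.0301), and the transcription factor gene MYC2 (0.76, adjusted p = 0.0498) lay near the threshold. All 3 lost their calls without amiNAA10 replicate 2 or replicate 3 (AOC2 and MYC2 also in most other such fits), and MYC2 then had an adjusted p of 0.119 or 0.193. The defence outputs VSP2 and PDF1.2 read -0.08 and -0.24, and LOX2, a lipoxygenase gene of jasmonate synthesis, read -0.05, and none of them was called.

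Acetyltransferase genes other than NAA10 differed by smaller amounts. Of 17 genes for N-terminal acetyltransferases and their partners 6 were higher and 1, NAA15, was lower, with a median of 0.14. The shares over all probe sets were 5.34% higher and 4.90% lower, and the 1 lower call is near that share. Besides NAA10 the higher ones included NSI, a plastid acetyltransferase, at 6.22 to 6.40 in the exon 1 line and 6.21 to 6.66 in the exon 2 line, against 5.57 to 5.93 in amiNAA10 (difference 0.67, SE 0.11, adjusted p = 0.00153, no overlap). The loci AT4G28030 (0.37), AT1G72030 (0.65), AT4G19985 (0.55) and AT2G39000 (0.40) were higher as well. Without amiNAA10 replicate 2 the higher count was 2, and AT4G28030 (0.34, adjusted p = 0.0537) and AT1G72030 (0.50, adjusted p = 0.0674) were not called. Among cytosolic subunits outside NatA, ATMAK3 and MAK10 of NatC read 0.14 and 0.03 and were not called.

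Stress and immune gene lists held few calls or none at this threshold. The salicylic acid defence list had 0 of 32 genes called by limma, and 0 at an unadjusted p under 0.05, with a median of -0.11. Its mean ranged widely within each line, 5.09 to 6.60 in the exon 1 line, 5.07 to 6.82 in the exon 2 line and 5.46 to 6.60 in amiNAA10, while WT lay at 3.85 to 4.16. The highest arrays were exon 1 replicates 2 and 3 (6.52 and 6.60), exon 2 replicate 4 (6.82) and amiNAA10 replicate 2 (6.60). PR1, a secreted marker protein of this pathway, differed by -0.75 (adjusted p = 0.644). Heat shock (31 genes), hypoxia (15), mitochondrial stress (12) and rapid stress and handling (15) also held 0 calls by limma, with 2, 4, 2 and 3 genes at an unadjusted p under 0.05 and medians of -0.05, -0.09, -0.11 and 0.08. These p-values do not show that the lines were alike.

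In the endoplasmic reticulum stress list 1 of 22 genes was called, a share near the 4.90% lower over all probe sets, and 2 were called without exon 2 replicate 4. BZIP28, a membrane-bound transcription factor that senses folding stress, was lower by 0.50 (adjusted p = 0.00896), at 5.98 to 6.57 in the HYPK lines and 6.60 to 6.96 in amiNAA10, without overlap. Single calls, all lower, came from SAG21 in senescence (1 of 16, -1.13), ATG13 in autophagy (1 of 24, -0.42) and UBQ10 among ubiquitin and N-degron genes (1 of 9, -0.32). The shares of senescence and autophagy are near the 4.90% lower over all probe sets. Without exon 2 replicate 4, which stood apart from the other exon 2 arrays, senescence held 3 lower calls and autophagy 4. Without amiNAA10 replicate 4 each held 2. Each of those 3 was no longer called without amiNAA10 replicate 2 (adjusted p = 0.130 for SAG21, 0.0526 for ATG13 and 0.112 for UBQ10), and the ubiquitin genes have near-identical coding repeats that probes may share.

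Transcripts of the mitochondrial genome were lower more often than higher, 14 of 92 against 2, with a median of -0.16. The shares over all probe sets were 4.90% lower and 5.34% higher. The exon 1 line alone had 8 lower calls and the exon 2 line alone 3, each with 1 higher call. ATMG00520 read 10.19 to 10.49 in the exon 1 line and 10.19 to 10.30 in the exon 2 line, against 10.51 to 10.81 in amiNAA10 and 9.60 to 9.79 in WT. The groups did not overlap, and the difference was -0.41 (SE 0.09, adjusted p = 0.00758). ATMG00840 (-0.67), ATMG01340 (-0.60) and ATMG00930 (-0.82) followed. ATMG00930 and the plastid locus ATCG00610 gave nearly the same value on every array (means of 7.0 for both in the HYPK lines, and 7.83 and 7.82 in amiNAA10), so they cannot be told apart. The lower count was 7 without amiNAA10 replicate 2, 4 without replicate 3, and 9 without amiNAA10 replicate 1, amiNAA10 replicate 4 or exon 1 replicate 3. The higher count was 0 without amiNAA10 replicate 2 or 3 and 4 without replicate 4. Of 14 plastid loci, ATCG00250 was higher (0.30) and ATCG00610 lower (-0.82), and the median was -0.01. These plastid counts are near the shares over all probe sets. ATCG00250 was not called without amiNAA10 replicate 2 (adjusted p = 0.0843) or replicate 3 (adjusted p = 0.0863).

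A run of neighbouring loci on chromosome 4 was higher in the HYPK lines. It was found after values were seen, by counting called loci in each of 27196 windows of 10 adjacent measured loci: 1 window held 7 loci called higher, the next highest count elsewhere was 5, and no window held over 5 called lower. In the stretch of 27 measured loci shown, 10 were called higher and none lower. MIR841a read 6.51, 6.26, 6.01 and 6.29 in the exon 1 line and 6.04, 5.58, 6.07 and 5.69 in the exon 2 line, against 4.13, 2.97, 2.70 and 4.04 in amiNAA10, and 5.02 to 5.57 in WT. All HYPK arrays were above amiNAA10, the lowest HYPK array lay at the top of the WT range, and the difference from amiNAA10 was 2.60 (SE 0.23, adjusted p = 1.53e-05). AT4G13575 was 9.26, 8.44, 8.75 and 9.13 in the exon 1 line and 8.64, 8.90, 8.93 and 8.08 in the exon 2 line, against 6.31, 5.73, 6.28 and 6.63 in amiNAA10. Its HYPK arrays overlapped the WT range (8.97 to 9.48), and the difference was 2.53 (SE 0.19, adjusted p = 3.36e-06), or 5.77-fold.

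AT4G13572 (2.13), HTA4 (1.63) and UNE15 (1.15) completed the strongest part of the run. Earlier in the run lay the microRNA genes MIR850 (1.33) and MIR863 (1.22), which overlap the noncoding locus AT4G13495 (1.04) in the reference annotation, as MIR841a overlaps HTA4. Probes for overlapping loci may read the same transcript, so these calls are not independent. The microRNA genes MIR857 and MIR397b, which lie between those parts of the run, read -0.20 (adjusted p = 0.145) and -0.23 (adjusted p = 0.152), and AMT1;1, an ammonium transporter gene, read -0.47 (adjusted p = 0.0957). The 2 remaining calls were AT4G13550 (0.64) and AT4G13530 (0.28), the second of which lost its call in 10 of the 12 fits that left out 1 array (adjusted p up to 0.139, without amiNAA10 replicate 3), without WT in the fit and with either line alone.

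**Figure D5:**
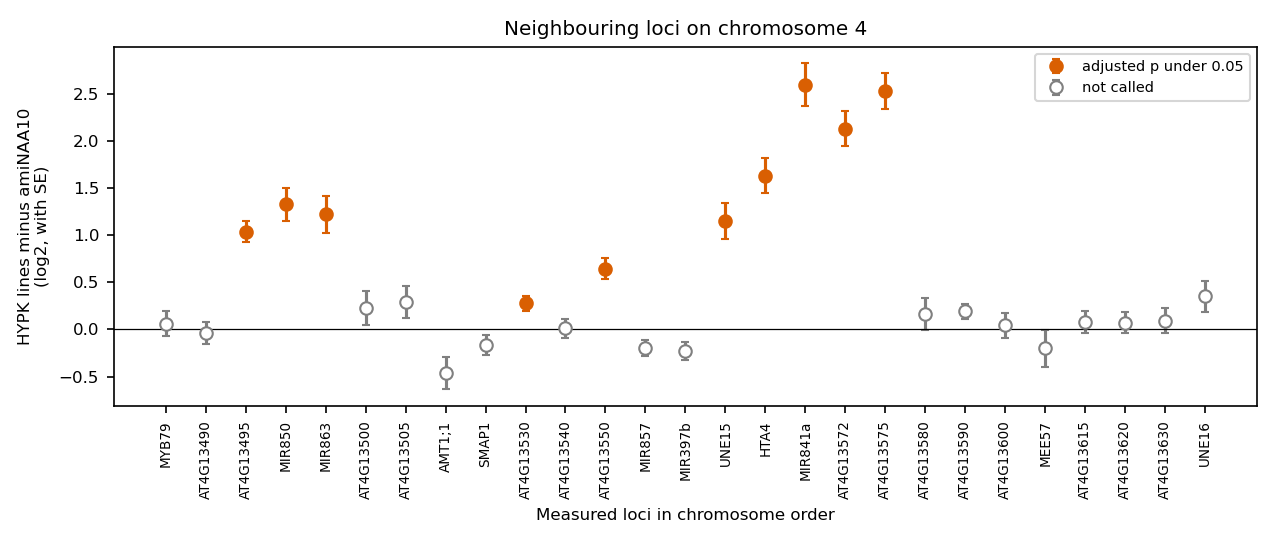
Log2 difference, HYPK lines minus amiNAA10, with SE, for 27 measured neighbouring loci on chromosome 4 in chromosome order (evenly spaced, not to distance); filled points are called at an adjusted p under 0.05. Loci from UNE15 to AT4G13575 lie between 1.15 and 2.60, MIR850 and MIR863 lie at 1.33 and 1.22, and MYB79 at the start of the stretch lies at 0.06.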

How the data were processed

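Log2 expression values of 27826 probe sets were deposited by the authors for 16 leaf arrays (Affymetrix, 1 colour), made by robust multi-array averaging (RMA, version not stated) per the submitters' processing notes. Total RNA was DNase-treated and turned into biotin-labelled cRNA, per the labels' protocols. The sources used here name no array design, probe annotation or build. Sorted arrays differed by at most 0.0019, so all arrays share 1 distribution, and a shift common to most genes cannot be seen. No 2 arrays held identical values. The number of arrays limits the precision.

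Locus codes were matched to the TAIR10.1 RefSeq gene table: 27241 matched, 585 did not, and 10556 had a symbol of their own. Each of the 4 genotypes (4 arrays each) had 1 mean in a linear model (limma 3.58.1, R 4.3.3, lmFit and eBayes), so WT arrays contributed to the shared spread only. The contrast was the mean of both HYPK line means minus amiNAA10, with Benjamini-Hochberg adjustment over all probe sets, a threshold of 0.05 and no filter on low values. Two-sided exact permutation tests over arrays were added for the targeted genes and their neighbours; 4 arrays against 4 cannot go below 0.0286. The procedure was tested on simulated data.

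Named genes were the 15 largest rises and 15 largest falls with their own symbol, an adjusted p under 0.05 and non-overlapping groups, up to 4 called members of each list with the smallest adjusted p, NAA10, HYPK, NAA15 and NAA50, and the loci beside HYPK and NAA10. Members and lists were chosen with earlier results of these data known, and genes outside this rule are given as examples of their lists. The 33 lists comprised 26 chosen by locus code (462 of 463 genes measured), all measured loci of the mitochondrial and plastid genomes (2 lists, 106 loci), and 5 added after values were seen (109 genes). Alternatives were the 12 arrays alone, trend and robust settings, a dim-probe filter, array weights, other scalings, a replicate block, each line alone, each array left out and a test against a 1.5-fold difference.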

Additional observations from a re-analysis of the deposited data

Results flagged for a closer look

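In 23 of 348 gene and genotype pairs among the 116 named genes, 1 array lay far from the other 3 of its genotype by Dixon's criterion, which flags about 1 in 20 by chance. Of the targeted genes, NAA10 was lowest on amiNAA10 replicate 3 at 2.64, and NAA15 on amiNAA10 replicate 4 at 8.15.

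Replicate 2 of amiNAA10 stood high for BCAT-2 (7.41) and CHX17 (5.26) and low for KCS1 (6.38). Replicate 4 of amiNAA10 stood high for ATMG00930 (8.47) and ATCG00610 (8.46), which give nearly the same values, and low for ATMG00840 (6.83). The locus AT5G64170, from the clock list, was high on amiNAA10 replicate 1 (8.32), and MIR863 was low on amiNAA10 replicate 3 (3.25).

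In the exon 1 line, replicate 1 stood high for RVE1 (8.74), ATMG00930 (7.22) and ATCG00610 (7.22) and low for SYP111 (2.04). Replicate 2 was low for E13L3 (1.78) and PSBP-1 (9.45), and replicate 3 was low for LDOX (1.07). In the exon 2 line, replicate 1 stood high for APL (6.34) and EXPA11 (4.91), replicate 2 was low for CYCD6;1 (1.69), replicate 3 was low for EXLB1 (4.55), and replicate 4 was high for CHX17 (3.79) and low for ATMG00520 (10.19).

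AT3G06600, beside HYPK, differed between the insertion lines themselves. The exon 1 line minus the exon 2 line was -1.98 (limma, adjusted p = 1.23e-05), with all 4 exon 2 arrays above all 4 exon 1 arrays.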

How the results depend on the processing

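Across both lines 2850 probe sets were called, and the count was 2475 without WT in the fit, 2777 with the replicate number as a block, 3506 with array weights and 3108 without the dimmest 30% of probe sets. A test against a 1.5-fold difference called 27 (13 higher, 14 lower). The exon 1 line alone gave 1505 (728 higher, 777 lower) and the exon 2 line alone 1824 (818 lower). Leaving out 1 array gave 1387 to 3596 calls (679 to 1862 higher, 708 to 1734 lower), lowest without amiNAA10 replicate 2 and highest without exon 2 replicate 4. For the exon 1 line alone these ranges were 638 to 1853 (277 to 919 higher, 361 to 934 lower), with 476 higher calls without WT, and for the exon 2 line alone 848 to 2905 (443 to 1582 higher, 405 to 1323 lower). NAA10 stayed at 1.93 to 2.05 when 1 array was left out. HYPK was -0.33 to -0.22 then, -0.62 with the exon 1 line alone and 0.057 with the exon 2 line alone. NAA15 ranged from -0.38 to -0.26, and it was not called without WT (-0.29, adjusted p = 0.0604) or with the exon 1 line (-0.32) or the exon 2 line (-0.27) alone. Gene list members called numbered 110, not counting the 30 calls of the 5 lists added after values were seen, and 49 to 128 with 1 array left out, 61 with the exon 1 line alone and 68 with the exon 2 line alone. Signs turned for AT3G06600 with the exon 1 line alone (-0.020), AT3G06620 without amiNAA10 replicate 2 (-0.0099, the low end of a range up to 0.19) or with the exon 1 line alone (-0.071), and AGL15 without amiNAA10 replicate 3 (0.061, the high end of a range from -0.12). The test against a 1.5-fold difference was not applied to the named genes one by one and is left out of the next counts. Of 110 called named genes outside the 4 targeted ones, 39 kept their sign but lost their call in at least 1 setting. For 26 of them this was in a setting other than a single line. AT3G06600, not among the 39, lost its call with the exon 1 line alone, where its sign turned. The causes were not tested. Same-numbered arrays of the 12 pairs correlated at -0.29 to 0.30, with 3 over 0.1. With 4 arrays per group these values neither show nor exclude a pairing of the samples by number. With the replicate block AOC2 (adjusted p = 0.0581), MYC2 (0.0501), UBQ10 (0.0535) and SULTR2;1 (0.0582) were no longer called. Small differences of dim probe sets are limited by background signal.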

Other observations

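Some genes of abscisic acid and drought responses were higher in the HYPK lines, 4 of 28 with none lower and a median of 0.18. Over all probe sets 5.34% were higher. RAB18, a dehydrin induced by abscisic acid, was 5.28, 5.57, 5.19 and 5.44 in the exon 1 line and 5.26, 5.56, 5.5 and 5.42 in the exon 2 line, against 4.33, 4.66, 4.73 and 5.19 in amiNAA10. Replicate 4 of amiNAA10 touched the lowest HYPK array, and the difference was 0.67 (SE 0.14, adjusted p = 0.00577 by limma). The abscisic acid hydroxylase genes CYP707A3 (0.83) and CYP707A1 (0.73) and the transcription factor gene ABF3 (0.43) were the others, and CYP707A1 lost its call in 8 of the 12 fits that left out 1 array. The list mean was 5.41 to 6.15 on the HYPK arrays and 5.43 to 5.72 on the amiNAA10 arrays, and 5.49 to 5.88 on the WT arrays.

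In the circadian clock list 3 of 22 genes were higher and 1 was lower, against 5.34% higher and 4.90% lower over all probe sets. CDF1, a repressor of flowering that cycles daily, was 7.5, 6.69, 6.79 and 7.34 in the exon 1 line and 7.24, 7.10, 7.35 and 6.68 in the exon 2 line, against 6.05, 5.27, 6.14 and 6.33 in amiNAA10. The groups did not overlap, and the difference was 1.14 (SE 0.19, adjusted p = 0.00180). RVE1, a MYB-like factor of morning-phased auxin production (1.07), and AT5G64170 (0.40) were higher, and the evening complex gene ELF3 was lower (-0.58). Without exon 2 replicate 4 the lower count was 2. The core clock genes CCA1, LHY and GI read 0.10, 0.04 and -0.02 and were not called.

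MYB96, an activator of cuticular wax synthesis, was 7.68, 7.37, 7.69 and 7.88 in the exon 1 line and 7.46, 7.35, 7.79 and 7.61 in the exon 2 line, against 6.84, 6.68, 6.88 and 6.91 in amiNAA10. All HYPK arrays were above, and the difference was 0.77 (SE 0.11, adjusted p = 0.000447). In the wax list 2 of 15 genes were higher, MYB96 and KCS1 (0.74), and 1 was lower, KCR1 (-0.50). The shares over all probe sets were 5.34% higher and 4.90% lower. KCS1 was not called without amiNAA10 replicate 2 (0.56, adjusted p = 0.0898), and KCR1 was not called without replicate 3 (-0.31, adjusted p = 0.148). Among 18 flavonoid and anthocyanin genes F3H was higher (0.61) and LDOX lower (-0.66), with a median of 0.01. These counts are near the shares over all probe sets, 5.34% higher and 4.90% lower. F3H was not called without amiNAA10 replicate 2 (0.54, adjusted p = 0.0884) or replicate 3 (0.62, adjusted p = 0.0576). That list held 2 higher calls without exon 1 replicate 4 or exon 2 replicate 4.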
